A study of Rattus norvegicus with 18 samples.

Results

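The mucosa of 3 inosine-treated, spinal cord-injured rats (SCI-inosine) was compared with the mucosa of 3 uninjured rats (Control). These 6 RNA-Seq libraries, of 18 in the series, were chosen by their labels of tissue and treatment. All animals were male Sprague Dawley rats. SCI-inosine rats had a complete transection of the thoracic spinal cord and then 225 mg/kg inosine per day by intraperitoneal injection for 8 weeks. Control rats had neither injury nor treatment, so that injury, injection and inosine differed together between the groups and their parts cannot be told apart. A group with the injury and the vehicle of inosine (SCI-vehicle, 3 mucosa libraries) and the detrusor, the smooth muscle layer of the same bladder wall (3 libraries per group), served for reference. Mucosa was separated from detrusor by microdissection, and all libraries carry the same batch label. The study calls the replicates of each group biological.

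The bladder mucosa consists of the urothelium, a stratified epithelium that seals the lumen and senses stretch, and the lamina propria beneath it, which holds fibroblasts, vessels, immune cells and nerve endings. A spinal transection above the sacral cord removes voluntary control of voiding and leads to an overactive, overdistended bladder. Inosine is a purine nucleoside formed from adenosine, and it has been studied as a protective agent for nerve cells. The comparison addresses how far the mucosa of treated, injured rats differed from that of uninjured rats. Genes are given by their Ensembl rat identifier, since the tables used here did not pair these with names (0 matched), and no role is stated for any of them.

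Few genes were called between SCI-inosine and Control mucosa, and their number depended on the test. Of 15740 genes tested, 0 (0%) passed an adjusted p-value of 0.05 in the quasi-likelihood test of edgeR, and the smallest value was 0.0616. One gene, ENSRNOG00000006365, was nearly silent in SCI-inosine mucosa and counted in all Control mucosa libraries, and the same held in detrusor. The count model of DESeq2, run as an alternative, called 17 genes, 13 higher and 4 lower, which is 0.137% of the 12378 genes to which it gave an adjusted p-value. Before adjustment, 787 genes (5.00% of those tested) had p-values under 0.05 in edgeR.

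The total count was 4663745, 5632324 and 4475878 reads in the Control mucosa libraries and 3845699, 3255012 and 4115953 in those of SCI-inosine, so every SCI-inosine library was shallower than every Control library. The number of genes with a count was between 18279 and 18656 in Control and between 17995 and 18330 in SCI-inosine. Genes enriched in mucosa took 5.07% to 6.66% of the counts of these 6 libraries, against 0.334% to 0.808% in the detrusor libraries of the same groups. The order of these shares went with the tissue labels. Urothelial markers could not be looked up by name. In the detrusor libraries, SCI-inosine replicate 2 stood apart with 14126 genes with a count, against 16475 to 17842 in the other 8 libraries. The main detrusor values that rest on it are also given without it.

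ENSRNOG00000006365 had the smallest p-value of the comparison. It was counted 38, 62 and 28 times in the Control mucosa libraries, and 0, 1 and 1 times in those of SCI-inosine. In CPM, the count scaled to the depth of the library, its level was 8.61 ± 2.54 (SD, n = 3) in Control and 0.186 ± 0.164 (SD, n = 3) in SCI-inosine. The groups were far from overlapping. Summed over libraries and scaled to their depth, 2 reads against 128 corresponded to a level 48.3-fold lower in SCI-inosine, with a 95% interval of 13.1 to 403 that covers counting error only. Its unadjusted p-value in edgeR was 3.91e-06, the adjusted p-value was 0.0616, and the adjusted p-value in DESeq2 was 0.0012. Across all alternatives of the analysis the adjusted p-value lay between 6.17e-12 and 0.678, and it was above 0.05 in all 9 fits that left out 1 mucosa library.

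The injured rats without inosine did not share this low level. SCI-vehicle mucosa had 61, 43 and 57 reads of ENSRNOG00000006365, or 12.4 ± 3.68 CPM (SD, n = 3). These libraries stood beside or above the Control libraries, and the comparison of SCI-inosine with SCI-vehicle gave an adjusted p-value of 0.0203 in edgeR and 7.37e-05 in DESeq2. It was the 1 gene that edgeR called between those groups in mucosa. Leaving out 1 library gave adjusted p-values of 0.0169 to 0.27, and the call was lost without Control replicate 1, SCI-vehicle replicate 1 or 3, or any of the SCI-inosine replicates.

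Detrusor libraries, which are separate from the mucosa libraries, gave the same picture for ENSRNOG00000006365. Its counts there were 18, 45 and 19 in Control, 35, 30 and 35 in SCI-vehicle, and 0 in each of the 3 SCI-inosine libraries. Against a floor of 3 reads over the group, its level in SCI-inosine detrusor was at least 35.2-fold lower than in Control detrusor, and the adjusted p-value was 0.0226 in edgeR and 2.39e-06 in DESeq2. With 1 library left out it was 0.0182 to 0.106, and the call was lost without Control replicate 1 or 2 or SCI-inosine replicate 2 or 3 of detrusor. Without SCI-inosine replicate 2, the library that stood apart, it was 0.0726. The 6 SCI-inosine libraries of both tissues held 2 reads of this gene in all, whereas each of the other 12 libraries held between 18 and 62. Whether mucosa and detrusor libraries came from the same rats is not given in the labels. Among the genes tested it was the 1 gene with at most 1 read in each of the 6 SCI-inosine libraries and 10 or more in each of the other 12, and 0 genes showed the opposite pattern. A limit of 20 reads in place of 10 would have left it out, since Control detrusor held 18 and 19. The pattern thus describes this gene and is not a test of it. Fewer cells with a transcript and less of it per cell cannot be told apart in such bulk samples.

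**Figure D1:**
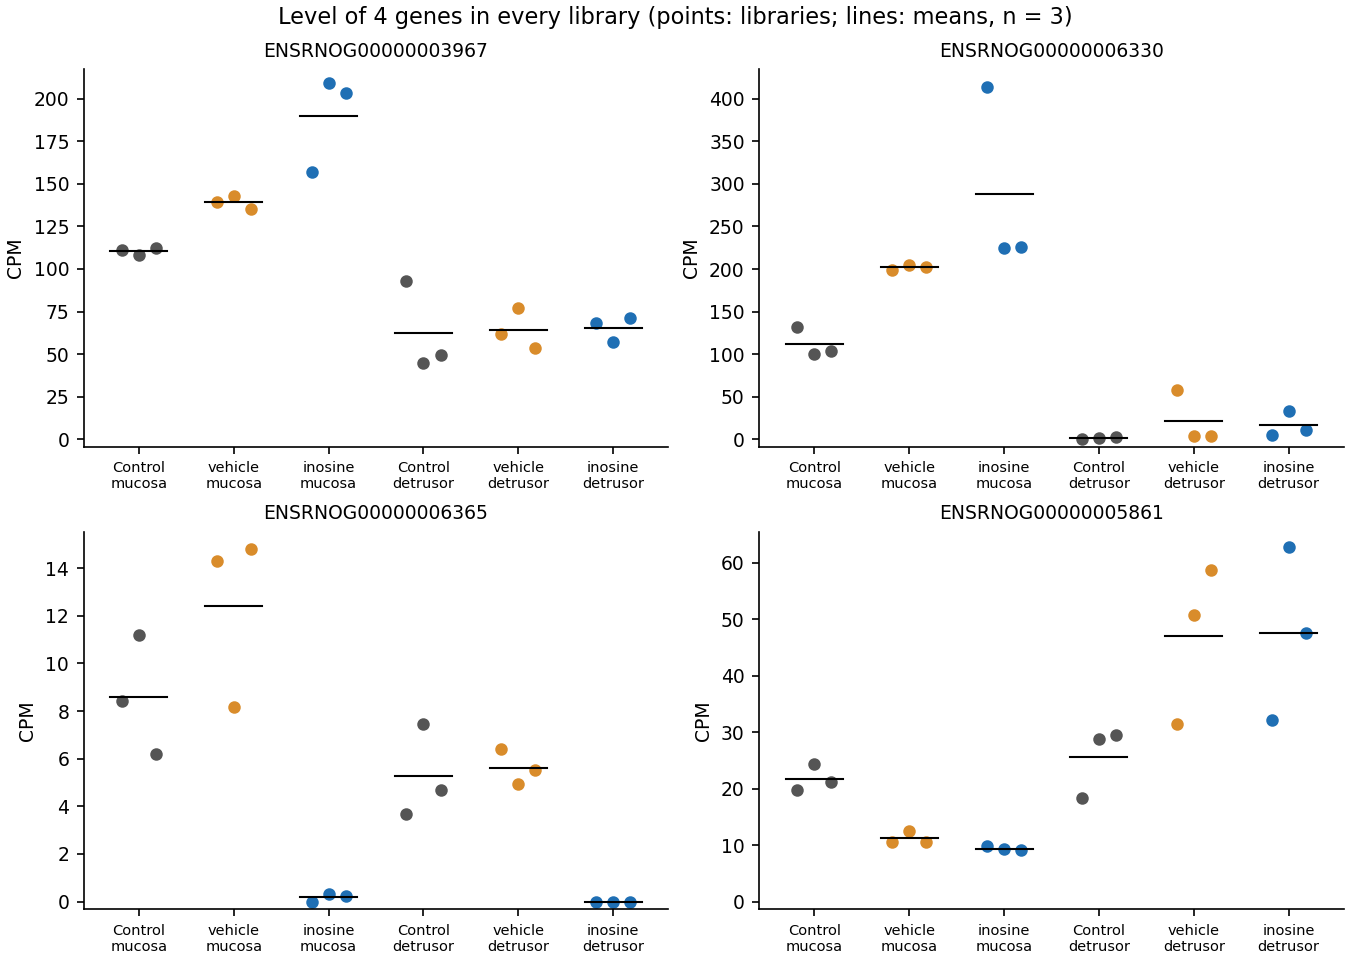
Level in CPM (vertical axes, linear) of 4 genes in all 18 libraries, by group and tissue. Points are libraries and lines are means of 3. ENSRNOG00000006365 lies at or near 0 in the SCI-inosine libraries of both tissues, and ENSRNOG00000005861 is lower than Control in SCI-inosine mucosa and higher than Control in SCI-inosine detrusor.

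ENSRNOG00000005861 had the second smallest p-value among the lower genes. Its level was 19.7, 24.3 and 21.2 CPM in Control mucosa and 9.87, 9.24 and 9.04 CPM in SCI-inosine mucosa. All SCI-inosine libraries were below all Control libraries, and they differed little among themselves. The log2 fold change was -1.21 (SE 0.17, 95% interval -1.59 to -0.84), with an adjusted p-value of 0.204 in edgeR and 0.00148 in DESeq2. In SCI-vehicle mucosa, which was set against the same Control libraries, the level was 10.6, 12.4 and 10.6 CPM and the log2 fold change was -0.95 (adjusted p = 0.199). SCI-inosine and SCI-vehicle mucosa differed by -0.26 on the log2 scale (adjusted p = 0.889).

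In detrusor the order of the groups was the opposite for ENSRNOG00000005861. Control detrusor had 18.3, 28.8 and 29.5 CPM, and SCI-inosine detrusor had 32.1, 62.8 and 47.5 CPM. SCI-vehicle detrusor had 31.5, 50.7 and 58.7 CPM, a mean of 47.0 CPM against 47.5 CPM in SCI-inosine. Both groups of injured rats were thus above Control there, as both were below Control in mucosa. SCI-inosine against Control had a log2 fold change of 0.89 (SE 0.29, adjusted p = 0.247). Without SCI-inosine detrusor replicate 2 this fold change was 0.64 (adjusted p = 0.569). The difference of the fold changes, mucosa minus detrusor, was -2.08 on the log2 scale (SE 0.37), with an unadjusted p-value of 3.59e-05 and an adjusted p-value of 0.141. Without SCI-inosine detrusor replicate 2 this difference was -1.84 (adjusted p = 0.252). The gene was chosen for its p-value in mucosa, and the mucosa fold change is part of the difference. The unadjusted p-value of the difference is thus not free of that choice.

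ENSRNOG00000003967 had the smallest p-value among the higher genes. Its level was 111, 108 and 112 CPM in Control mucosa and 157, 209 and 203 CPM in SCI-inosine mucosa. The Control libraries lay close together and all SCI-inosine libraries were above them. The log2 fold change was 0.78 (SE 0.12, 95% interval 0.51 to 1.05), with an adjusted p-value of 0.382 in edgeR and 0.000217 in DESeq2. SCI-vehicle mucosa lay between the groups at 139, 143 and 135 CPM. In detrusor the level was 62.4 ± 26.7 CPM in Control and 65.4 ± 7.28 CPM in SCI-inosine (SD, n = 3 each), with a log2 fold change of 0.07 (adjusted p = 0.927). For the difference between the tissues, 0.73 on the log2 scale, the adjusted p-value was 0.437. Without SCI-inosine detrusor replicate 2 the fold change in detrusor was 0.16 (adjusted p = 0.903) and the difference 0.63 (adjusted p = 0.721).

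ENSRNOG00000006330, a mucosa-enriched gene, had the next smallest p-value among the higher genes. Its level was 132, 100 and 104 CPM in Control mucosa and 414, 225 and 226 CPM in SCI-inosine mucosa. The groups did not overlap, and SCI-inosine replicate 1 stood well above the other two. The log2 fold change was 1.36 (SE 0.23, 95% interval 0.86 to 1.87), with an adjusted p-value of 0.506 in edgeR and 0.000217 in DESeq2, and without that library it was 1.01 (adjusted p = 0.134). SCI-vehicle mucosa, at 199, 205 and 202 CPM, lay between Control and SCI-inosine. In detrusor this gene was far lower, at 0.203, 1.49 and 3.20 CPM in Control and 5.05, 33.4 and 10.6 CPM in SCI-inosine, and its log2 fold change of 3.38 there had an adjusted p-value of 0.294. Without SCI-inosine detrusor replicate 2 this fold change was 2.30 (adjusted p = 0.648). SCI-vehicle detrusor had 58.5, 4.1 and 3.32 CPM. Its replicate 1 also had the highest share of mucosa-enriched counts of all detrusor libraries, 1.65%. Within SCI-inosine detrusor, replicate 2 was highest both in this gene and in that share (0.808%). The part of tissue separation in these detrusor values was not tested.

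For most genes the fitted difference between the groups was small. The median log2 fold change was 0.00, and 90% of genes lay between -0.57 and 0.72. Of the genes with an unadjusted p-value under 0.05, 371 (2.36%) were higher and 416 (2.64%) were lower in SCI-inosine. Which side held more genes depended on the analysis, with 659 higher and 433 lower genes without Control replicate 1. At an even spread of p-values each bin of 0.05 would hold 787 genes, the number found in the lowest bin, and all 20 bins held between 742 and 844. At an unadjusted p-value under 0.001 there were 20 genes, 13 higher and 7 lower, against an even share of 15.7. More than 2-fold differences were fitted for 410 higher and 256 lower genes, of which 136 and 97 had an unadjusted p-value under 0.05. In this fit larger differences were thus more often on the higher side. How far these 2-fold counts rest on single libraries was not tested.

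**Figure D2:**
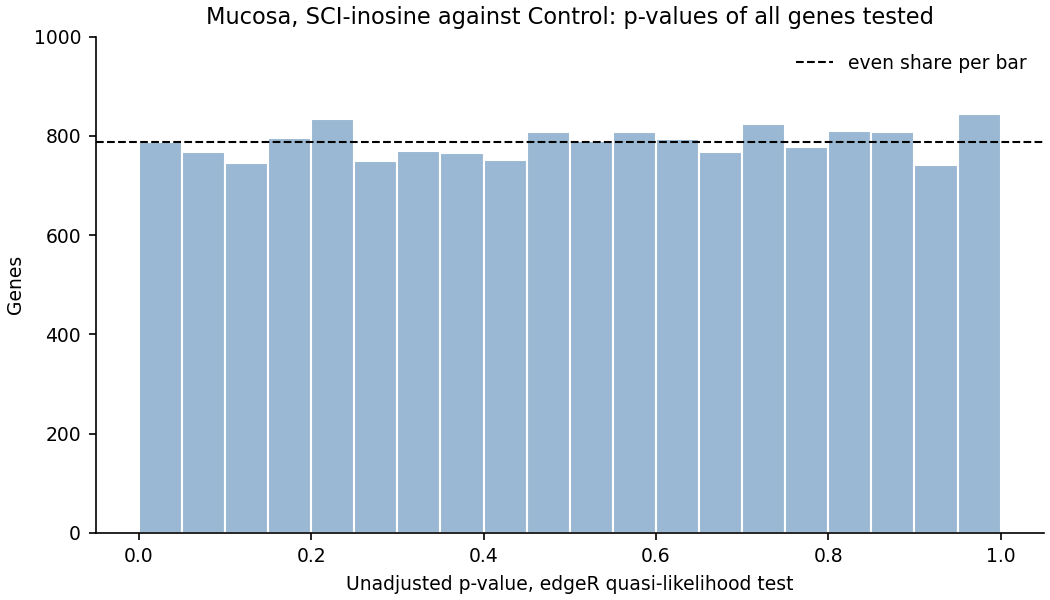
Number of genes (vertical axis) in each bin of 0.05 of the unadjusted edgeR p-value (horizontal axis) for SCI-inosine against Control mucosa, with the even share of 787 genes as a dashed line. The bars stay between 742 and 844 with no rise at small p-values.

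The precision of the comparison bounds how large a difference most genes can have had. The median standard error of a log2 fold change was 0.227, and the median half-width of its 95% interval was 0.504. The interval lay within a 2-fold difference in either direction for 10533 genes (67.0%). Among the 3935 genes with the highest expression (median 114.5 CPM) this held for 93.2%, and among the 3936 with the lowest (median 1.75 CPM) for 8.25%. For most genes of low expression the interval thus reached beyond 2-fold at this depth.

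**Figure D3:**
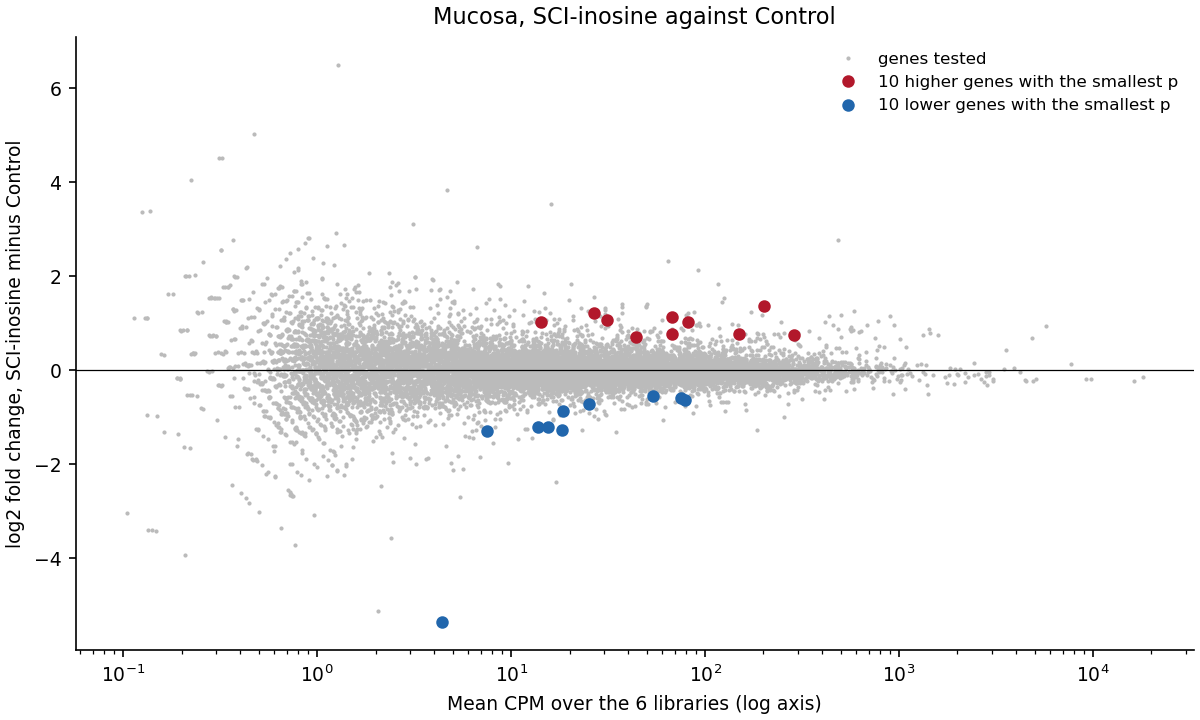
Log2 fold change, SCI-inosine minus Control mucosa (vertical axis), against the mean CPM over the 6 libraries (horizontal log axis) for the genes tested, without 24 genes at a mean CPM up to 0.1. Coloured points are the 10 higher and 10 lower genes with the smallest p-values, and the lowest of them is ENSRNOG00000006365 at -5.36, a fitted value that depends on the prior count.

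Likeness between libraries was similar within and between the groups. Pearson's r of log2 CPM over the genes tested, a description across genes that are not independent, averaged 0.970 between Control libraries (3 pairs), 0.967 between SCI-inosine libraries (3 pairs) and 0.968 between Control and SCI-inosine libraries (9 pairs). SCI-inosine replicates 2 and 3 were nearest to each other. The nearest library of SCI-inosine replicate 1 was SCI-vehicle replicate 1, and so was that of Control replicate 1. The median within-group SD of log2 CPM was 0.224 in Control and 0.253 in SCI-inosine.

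The amount of detrusor-enriched transcripts varied among the mucosa libraries. Tissue-enriched genes were more than 4-fold higher in 1 tissue than in the other in SCI-vehicle, with an adjusted p-value under 0.05 in edgeR. They comprised 720 detrusor-enriched and 1275 mucosa-enriched genes. Scaling and spread in that fit came from all 18 libraries, so the choice was not fully separate from the 6 libraries compared. The detrusor-enriched genes took 6.36%, 2.89% and 3.33% of the counts in Control mucosa, and 8.56%, 4.00% and 5.35% in SCI-inosine mucosa. Replicate 1 was highest in both groups, and the groups overlapped. The means were 4.19% ± 1.89 and 5.97% ± 2.34 (SD, n = 3 each), with p = 0.4 in a two-sided exact permutation test, in which 3 against 3 libraries cannot go below 0.1. In the detrusor libraries of the series these genes took between 25.2% and 31.6% of the counts.

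**Figure D4:**
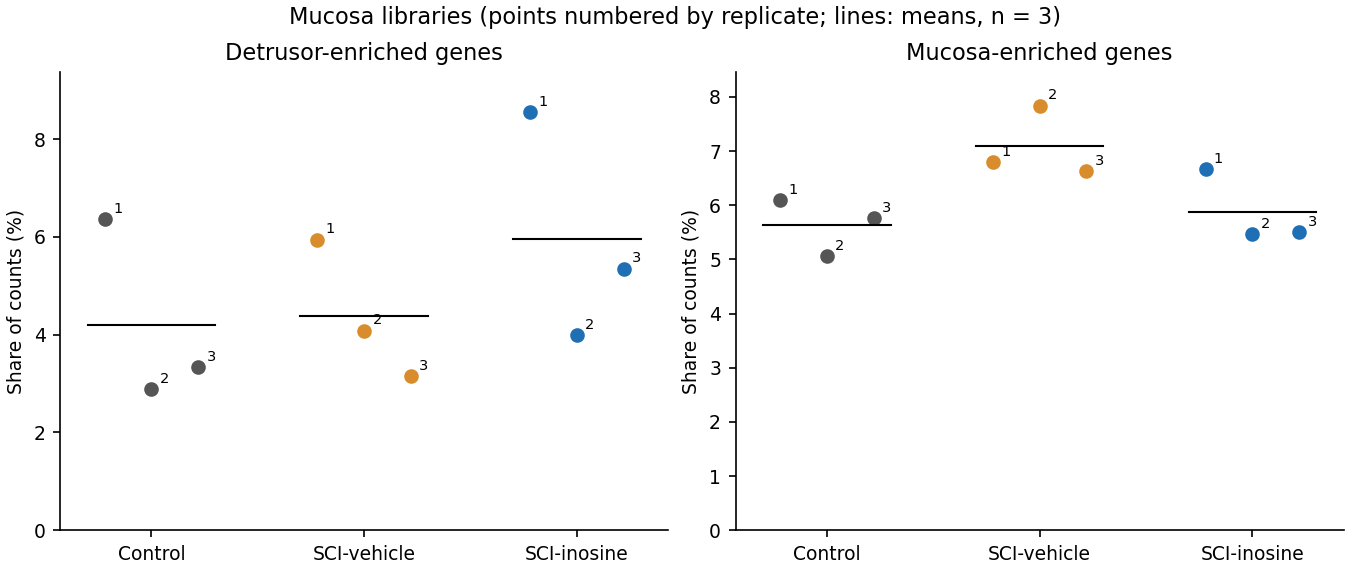
Share of counts in percent (vertical axes, from 0) taken by detrusor-enriched genes (left) and mucosa-enriched genes (right) in the 9 mucosa libraries, numbered by replicate, with means of 3 as lines. Replicate 1 of Control and of SCI-inosine has the highest detrusor-enriched share of its group, and Control and SCI-inosine overlap in both panels.

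Detrusor-enriched genes were on balance higher in SCI-inosine mucosa, with a median log2 fold change of 0.30 against 0.00 over all genes. At an unadjusted p-value under 0.05, 44 of them (6.11%) were higher and 18 (2.50%) lower, beside 2.36% and 2.64% of all genes tested. This median was 0.0456 without SCI-inosine replicate 1 and 0.555 without Control replicate 1, the libraries with the highest detrusor-enriched shares of their groups. The part of the microdissection in these values was not tested. For mucosa-enriched genes the median was 0.11, with 52 genes (4.08%) higher and 40 (3.14%) lower, and it lay between 0.000964 and 0.179 when libraries were left out in turn. The share of counts of mucosa-enriched genes was 5.64% ± 0.527 in Control and 5.88% ± 0.680 in SCI-inosine mucosa (SD, n = 3 each; two-sided exact permutation p = 0.7).

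The 10 higher and 10 lower genes with the smallest p-values, among genes whose groups did not overlap, include the 4 genes above. The higher genes had log2 fold changes of 0.702 to 1.36 (median 1.03), and DESeq2 called 10 of 10. The lower genes had a median of -1.03, and DESeq2 called 3 of 10. Over all genes DESeq2 called 17 of 12378 (0.137%). It used the same counts by which these genes were chosen, so its calls are not separate evidence for them. In SCI-vehicle against Control, which shares its Control libraries, the medians of the same genes were 0.375 and -0.584. The genes were chosen for their p-value against the same Control libraries, so nothing is read from the sign or size of these medians.

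In detrusor, where other libraries were compared, the median of the 10 higher genes was 0.314 and that of the 10 lower genes was -0.137. The fold change had the same sign as in mucosa for 8 of the higher and 5 of the lower genes, beside 50.4% of all genes tested. An unadjusted p-value under 0.05 in detrusor with the same direction was found for 2 of the higher and 2 of the lower genes, beside 7.06% of all genes, and with the opposite direction for 0 and 1. Without SCI-inosine detrusor replicate 2 the medians were 0.149 and -0.028, the same signs were found for 8 and 5 genes, and the former 2 and 2 genes became 0 and 2.

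**Figure D5:**
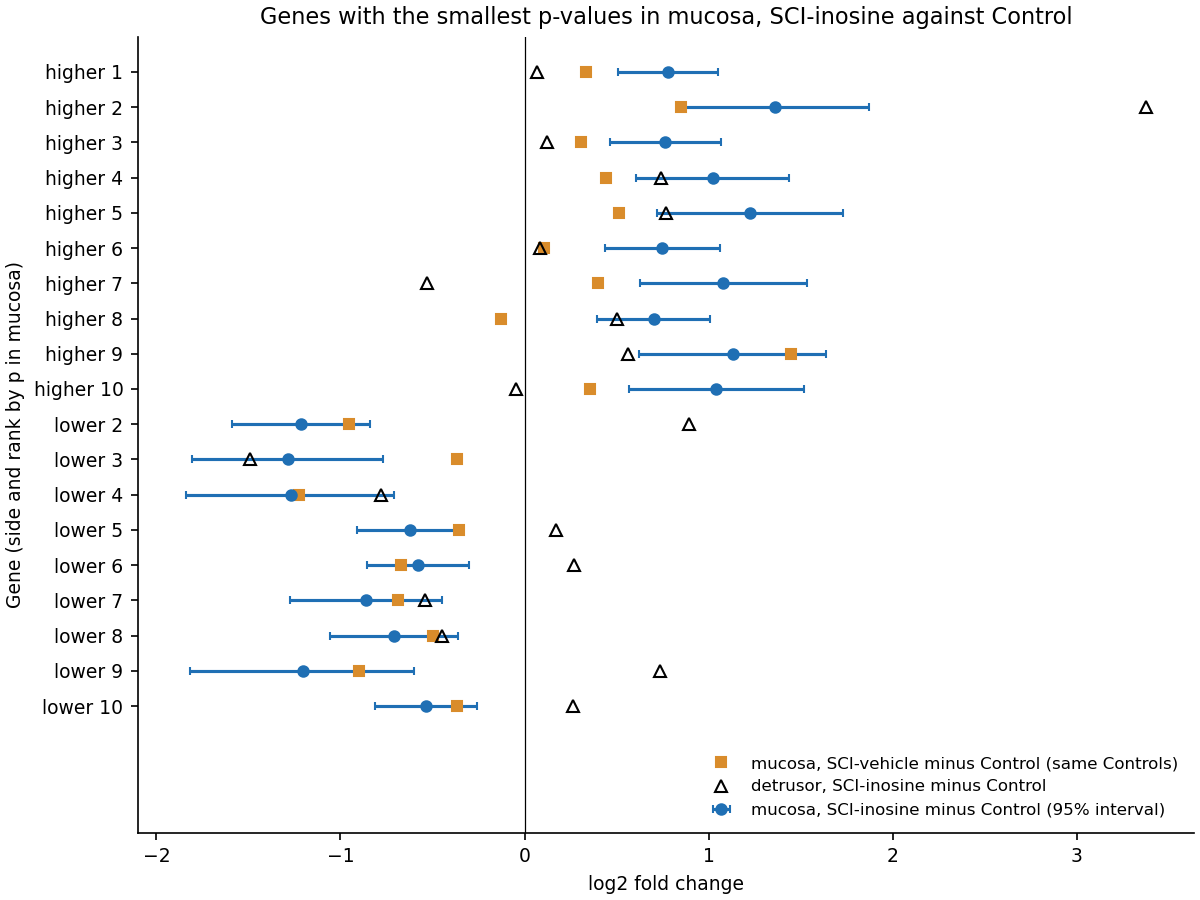
Log2 fold change (horizontal axis) of the 10 higher genes and of 9 of the 10 lower genes with the smallest p-values, ranked by p (vertical axis), in SCI-inosine mucosa with its 95% interval (circles), SCI-vehicle mucosa against the same Control libraries (squares) and SCI-inosine detrusor (triangles). ENSRNOG00000006365, lower rank 1, is left out because its detrusor group is at 0. Of the 10 higher genes, 8 lie above 0 in detrusor too. Of the 10 lower genes, 5 have the same sign in detrusor, with ENSRNOG00000006365 among them. Over all genes tested the share with the same sign is 50.4%.

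The difference from Control was set against that in detrusor for every gene. The test of the difference between the tissues gave 0 genes with an adjusted p-value under 0.05 in edgeR (smallest 0.12), and 1632 genes (10.4%) with an unadjusted p-value under 0.05. Of these, 697 were more positive in mucosa and 935 more negative. Opposite signs in the tissues, which a choice of genes by this difference favours, were found for 83.4% of them and 49.6% of all genes tested. Leaving out 1 library gave 1117 to 2583 genes, with 1117 without Control detrusor replicate 1, 1172 without SCI-inosine detrusor replicate 2 and 2583 without SCI-inosine detrusor replicate 1. An unadjusted p-value under 0.05 in mucosa was found for 259 of the 1632 genes and in detrusor for 1044. In detrusor itself, 2145 genes (13.6%) had an unadjusted and 46 an adjusted p-value under 0.05, with a median standard error of the log2 fold change of 0.284 against 0.227 in mucosa. Without SCI-inosine detrusor replicate 2 these detrusor counts were 1406 and 0.

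Genes enriched in either tissue leaned differently in mucosa and in detrusor. Detrusor-enriched genes had a median log2 fold change of 0.30 in mucosa and -0.20 in detrusor, and 136 of 720 (18.9%) had an unadjusted p-value under 0.05 for the difference, beside 10.4% of all genes. More positive in mucosa were 102 of these genes (14.2%), beside 4.43% of all genes, and 34 (4.72%) were more negative, beside 5.94%. Mucosa-enriched genes had a median of 0.11 in mucosa and 0.63 in detrusor, and 133 of 1275 (10.4%) had such a p-value, the share of all genes. More negative in mucosa were 113 of them (8.86%) and more positive 20 (1.57%). Without SCI-inosine detrusor replicate 2 the shares with such a p-value were 14.0% of detrusor-enriched, 6.35% of mucosa-enriched and 7.45% of all genes. The medians in detrusor were then -0.146 for detrusor-enriched and 0.664 for mucosa-enriched genes. The share of counts of mucosa-enriched genes in detrusor was at most 0.400% in the Control libraries, and it was higher in all 3 SCI-inosine libraries, up to 0.808%. In the SCI-vehicle detrusor libraries it was 1.65%, 0.405% and 0.360%, the first being the highest of all detrusor libraries. These SCI-vehicle libraries also served to define the tissue-enriched genes. The part of tissue separation in these differences was not tested.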

How the data were processed

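The authors depleted ribosomal RNA, prepared strand-marking libraries and sequenced 51-base paired-end reads on 2 flow cells, whose counts they summed. The submitters' processing notes list FastQC 0.11.9, MultiQC 1.13, Trim Galore 0.6.10, STAR 2.7.10a, SAMtools 1.17, featureCounts 2.0.3 and the build Rnor_6.0. The annotation release and strand setting are not given in the sources used here. The deposited values are whole-number read counts of 32754 genes without normalization.

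The tested genes (15740) exceeded 1 CPM in 3 or more of the 18 libraries. The 9 mucosa libraries (3255012 to 5632324 reads) were scaled by TMM and fitted by group with edgeR 4.0.16 (quasi-likelihood, two-sided) in R 4.3.3. P-values were adjusted by Benjamini-Hochberg over all genes tested, with a threshold of 0.05. The tissue difference used all 18 libraries in 6 groups. The scripts were tested on simulated data. Alternatives included DESeq2 1.42.0 and limma 3.58.1. Giving the main detrusor values without SCI-inosine detrusor replicate 2 was added after the data were seen.

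The groups, the gene rule and the tests were chosen with earlier results of these data known. The rule named the 10 higher and 10 lower non-overlapping genes with the smallest p. Its condition of a gene symbol was dropped after the files were seen, and 2 identifiers per direction are printed. Without gene names, marker and pathway lists, the genes named in the paper and a smooth muscle covariate were not run.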

Additional observations from a re-analysis of the deposited data

Results flagged for a closer look

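For ENSRNOG00000005861 the fitted difference from Control had opposite signs in the tissues. The gene was chosen for its p-value in mucosa, and that fold change is part of the difference between the tissues. The log2 fold change was -1.21 in mucosa and 0.89 in detrusor, a difference of -2.08 (SE 0.37). The 3 SCI-inosine libraries were above all 3 Control libraries in detrusor and below them in mucosa, where the choice of the gene required that the groups did not overlap. SCI-vehicle had similar levels to SCI-inosine, with means of 11.2 and 9.38 CPM in mucosa and 47.0 and 47.5 CPM in detrusor. The adjusted p-value of the difference was 0.141 in edgeR, and over 18 alternatives it ranged from 0.00175 (DESeq2) to 0.436, with 4 of 18 under 0.05. The gene belongs to the detrusor-enriched genes, whose share of counts was 4.19% in Control and 5.97% in SCI-inosine mucosa on average (exact permutation p = 0.4). Their part in this difference was not tested.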

How the results depend on the processing

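No named gene and neither median of tissue-enriched genes changed sign under the alternatives run. The side with more genes at an unadjusted p-value under 0.05 did change: lower genes were more in the reported fit (371 higher, 416 lower) and in 9 of 21 alternatives, and higher genes in the other 12, with 42.7% to 60.3% of the genes higher. Against 0 genes at an adjusted p-value under 0.05, DESeq2 called 17, edgeR's likelihood ratio test 24, and 1 gene was called without a count filter, with all 18 libraries in 1 model, or without detrusor-enriched genes (chosen after seeing the data). That gene was ENSRNOG00000006365, with adjusted p-values of 0.0047, 0.00482 and 0.0485. Leaving out each library gave 0 to 0 genes.

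The 787 genes at an unadjusted p-value under 0.05 became 1214 with limma voom and sample quality weights together, 500 with all 18 libraries, 503 with a log2 fold change beyond 0.5, and 606 to 1092 when a library was left out. The 371 higher genes became 647 with voom and weights, 570 with the detrusor-enriched level as a covariate (added after seeing the data), and 298 to 659 when a library was left out. The 416 lower genes became 226 with all 18 libraries, 234 with the fold limit, and 286 to 433 when a library was left out. Without Control replicate 1 there were 659 higher and 433 lower genes, and 528 of the 787 genes were shared (67.1% of these and 48.4% of the 1092). The causes were not tested.

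For the difference between tissues, 0 genes at an adjusted p-value under 0.05 became 70 with DESeq2, 4 without a filter, 4 with the replicate block, and 0 to 3 when a library was left out (3 without SCI-inosine detrusor replicate 1). The 1632 genes before adjustment became 1117 to 2583 when a library was left out. With the replicate number as a block, mucosa had 0 genes at an adjusted and 1015 at an unadjusted p-value under 0.05. Same-numbered Control and SCI-inosine libraries of mucosa correlated in their deviations at 0.464, 0.298 and 0.0101. The numbers were thus not taken as a pairing of these groups. Control replicate 3 did not correlate best with its own number. Same-numbered mucosa and detrusor libraries correlated at 0.121, 0.144 and 0.0452 in Control, and differently numbered ones at -0.123 to -0.00954. In SCI-inosine the values were 0.0597, 0.00559 and 0.142, and -0.128 to 0.0374 for differently numbered ones. Mucosa replicate 2 of SCI-inosine correlated more with detrusor replicate 3 (0.0299). Same-numbered libraries of the tissues may come from the same rat, which the labels do not give and which was not tested. The test of the difference between the tissues took all libraries as independent, which would then not hold. With the replicate block, the adjusted p-value of the difference for ENSRNOG00000005861 was 0.0215.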
